A study of Schizosaccharomyces pombe 972h- with 8 samples.

Results

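The resting transcriptome of fission yeast was described from the 4 control arrays of the series, out of 8 arrays in all. They were chosen by their titles, which mark them as controls, and no measured value entered the choice. The cells were Schizosaccharomyces pombe 972h-, a haploid strain of the M mating type, grown without hydrogen peroxide in rich yeast extract medium at 30 °C. RNA of 2 cultures, each started from its own colony, was hybridized to an expression array (Sp_EMA) and to a tiling array (Sp_TMA), so that each platform had 2 control arrays and the same culture was measured on both. The other 4 arrays, of cells exposed to hydrogen peroxide, were not used. Every level below is the authors' RMA value on the log2 scale. Each platform listed the same 4854 entries, and a gene's position is given as its rank (1 is the highest) or as its percentile among them (100 is the highest) within a platform. RMA levels rest on the brightness of short probes. They are not divided by gene length and do not grow with it as read counts do, but probes bind with different strength, so that a rank between genes is approximate. The platforms were normalized separately and have scales of their own, so that a gene's position is compared between them by rank or percentile, and levels enter only a correlation and a plot over all genes. Where the highest or lowest member of a gene group is named, it is so by the mean of both percentiles unless a platform is given.

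A yeast cell that doubles in rich glucose medium spends much of its messenger RNA on making ribosomes and on glycolysis, which feeds ethanol fermentation. Genes for mating and meiosis are kept low while nutrients last, because S. pombe conjugates and sporulates when it starves, nitrogen starvation above all.

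The order of the genes was nearly the same in both cultures. The median gene moved by 54 ranks between the cultures on Sp_TMA and by 47 ranks on Sp_EMA, and its SD between cultures (n = 2) was 0.06 and 0.05 log2 units. Between platforms the order agreed less closely. Spearman's rho across genes was 0.83 and Pearson's r 0.86 over the 4854 entries, which are not independent replicates and share their 2 cultures, and the median gene moved by 389 ranks. The gap between platforms was 8.01 percentile points at the median. It was within 5 points for 1801 genes (37.1%) and within 20 points for 3826 genes (78.8%).

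**Figure D1:**
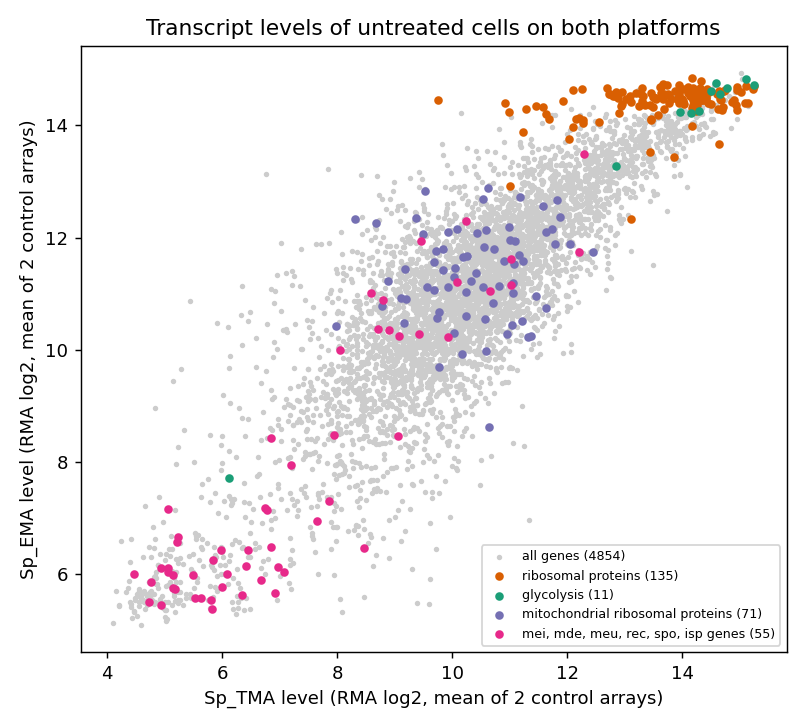
RMA log2 level of each gene on Sp_TMA (x axis) and Sp_EMA (y axis), each the mean of 2 control arrays, with all 4854 genes in grey and 4 gene groups in colour. The ribosomal protein genes (135) lie in a flat band at the top, close together on the Sp_EMA axis and spread out on the Sp_TMA axis. The mei, mde, meu, rec, spo and isp genes (55) lie mostly in the lower left corner.

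Both ends of the ranking were shared by the platforms. Of the 485 genes in the top 10% of each platform, 370 were in both lists (76.3% of each), and of the 485 in the bottom 10%, 330 were in both (68.0% of each). No gene stood in the top 10% of one platform and the bottom 10% of the other. As background for the groups below, 7.62% of all genes were in the top 10% on both platforms and 6.8% were in the bottom 10% on both. The very top agreed less well by name: 10 genes were among the 25 highest of both platforms and 46 among the 100 highest of both. On each platform's own scale, the highest gene of culture 1 on Sp_EMA lay 1.51 above the 90th percentile of its array, against 2.52 on Sp_TMA.

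The highest transcripts encoded glycolytic enzymes and parts of the translation machinery. By the mean of both percentiles, the 25 highest genes held 11 genes of the cytosolic ribosome, 5 of glycolysis, 2 of ethanol fermentation and 2 elongation factors. The first place was shared by 2 genes. One was eno101, enolase, at 15.10 and 15.12 on Sp_TMA (cultures 1 and 2) and at 14.84 and 14.82 on Sp_EMA. The other was fba1, fructose-bisphosphate aldolase, at 15.23 and 15.28 on Sp_TMA and 14.73 and 14.71 on Sp_EMA. The elongation factor gene tef101, which encodes EF-1 alpha, stood at 15.05 and 15.01 on Sp_TMA and at 14.93 in both cultures on Sp_EMA, where it was the highest of all genes. Pyruvate decarboxylase (pdc101) ranked 10 on Sp_TMA and 3 on Sp_EMA, and alcohol dehydrogenase (adh1), the enzyme that follows it on the way to ethanol, ranked 4 and 18. The highest gene on Sp_TMA was rps2, a protein of the small ribosomal subunit, with 15.24 and 15.27. Genes of other kinds in this top set were sks2 and ssa2 (Hsp70 chaperones, sks2 bound to ribosomes), met26 (methionine synthesis), tif1 (the helicase eIF4A) and car2 (ornithine transaminase), which ranked 25 on both platforms.

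The order within this top set was not resolved in full. Of the 24 pairs of neighbours among the 25 highest genes, the array values of the 2 genes overlapped in 19 pairs on Sp_TMA and in 18 on Sp_EMA. On Sp_TMA these 25 genes ran from 15.26 down to 14.80, and on Sp_EMA from 14.93 down to 14.65. In the 25 genes highest on both platforms together, the cultures differed by at most 0.13 on Sp_TMA and 0.05 on Sp_EMA. A short gene of no known function stood among them on a single platform: SPAC27E2.11c, annotated as a Schizosaccharomyces specific protein of 246 coding bases, was at 15.13 and 15.16 on Sp_TMA (rank 6) and at 14.35 in both cultures on Sp_EMA (rank 134).

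Genes of the cytosolic ribosome made up the largest block at the top. They numbered 135, of which 111 (82.2%) were in the top 10% on both platforms against the 7.62% of all genes, and none was in the bottom 10% of both. The 78 genes of the large subunit had a median percentile of 95.9 on Sp_TMA and 98.2 on Sp_EMA, and 63 were in the top 10% of both. The 57 genes of the small subunit had medians of 96.8 and 97.9, and 48 were in the top 10% of both. The range was much wider on Sp_TMA, from the 37.3rd to the 99.99th percentile, than on Sp_EMA, from the 75.9th to the 99.97th. Together these genes made up 30.0% of the 370 genes at the top of both platforms.

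Many promoters of these genes carry a HomolD box, a short element known from S. pombe that stands where many other genes have a TATA box. It was searched as CAGTCACA on both strands, in a window from 250 bases before to 50 bases after the annotated gene start (RefSeq, assembly ASM294v3). It was found in 85 of the 135 ribosomal protein promoters (63.0%) and in 129 of all 4842 promoters (2.66%). Of the 11 ribosomal protein genes among the 25 highest genes 8 had it. In the ribosomal protein genes the box began at a median of 51 bases before the gene start, with quartiles of 57 and 47 bases. Stretches of 52 bases around the box are shown for 4 of the highest ribosomal protein genes, for tef101 and for tpi1 (triosephosphate isomerase), each on the strand of its gene, with the box in capitals. In rpl101, rps3 and tpi1 it reads in the opposite direction.
rps2: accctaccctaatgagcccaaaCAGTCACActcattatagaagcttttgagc
rpl101: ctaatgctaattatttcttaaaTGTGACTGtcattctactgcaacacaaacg
rps3: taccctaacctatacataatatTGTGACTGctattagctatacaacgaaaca
rps802: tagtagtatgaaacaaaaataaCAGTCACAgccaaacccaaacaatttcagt
tef101: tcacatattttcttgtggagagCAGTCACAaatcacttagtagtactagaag
tpi1: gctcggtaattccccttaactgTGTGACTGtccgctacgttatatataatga

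The stretch of rps2 is III:2096053-2096104 on the minus strand, that of rpl101 is III:612606-612657 (minus), that of rps3 is II:4239361-4239412 (minus) and that of rps802 is I:849407-849458 (plus). The stretch of tef101 is III:269531-269582 (minus) and that of tpi1 is III:939833-939884 (plus). The median of the mean percentile was 97.6 for those with a box and 96.7 for those without. Among all other genes it was 87.9 for the 44 with a box and 48.3 for those without.

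The box was concentrated in the highest genes. When genes were split into 10 equal bins by their mean percentile, it was found in 21.0% of the promoters of the highest bin, in 2.06% of the next and in at most 0.825% of each of the other 8. Of the 370 genes in the top 10% of both platforms 24.9% had it, against 1 promoter (0.311%) of the 322 annotated genes in the bottom 10% of both. Without ribosomal protein genes the share at the top was 7.34% (19 of 259), against 0.935% of all other genes. No other motif searched stood out as much. TATAAA was present in 48.4% of all promoters and in 42.5% of the highest bin. CCAAT was present in 42.5% of all promoters and in 40.6% of the highest bin. AACCCT was present in 9.60% of all promoters and in 17.1% of the highest bin. It was in 41 of the 135 ribosomal protein promoters (30.4%). In the top 10% of both platforms 19.7% had it, and 15.4% without ribosomal protein genes, against 9.01% of all other genes. Each motif was counted on either strand, and none of these motifs holds another. A match shows that the letters are present, not that a factor binds there.

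**Figure D2:**
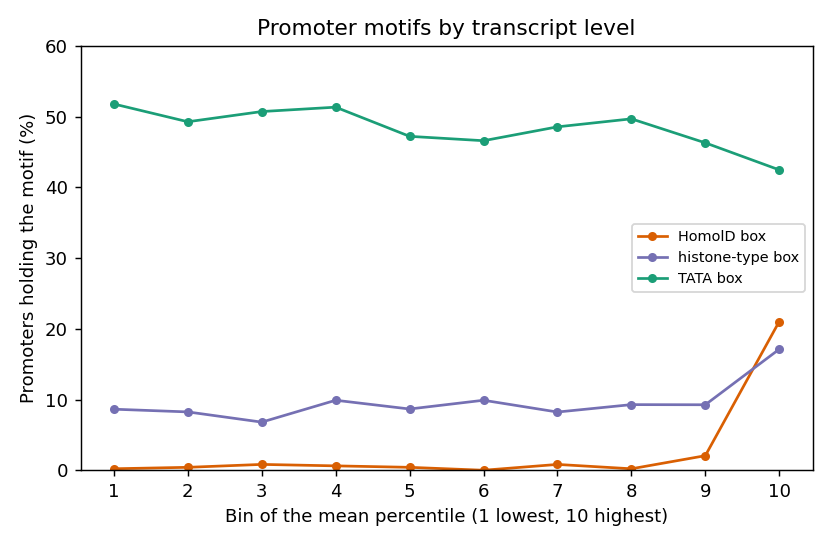
Share of promoters (y axis, percent) that hold a HomolD box, a TATA box or AACCCT in each of 10 bins of genes by mean percentile of both platforms (x axis, 1 lowest to 10 highest). AACCCT is labelled as the histone-type box, but most promoters that hold it are not of histone genes. The HomolD box stays at or below 2.06% in the lower 9 bins and reaches 21.0% in the highest.

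Most ribosomal proteins of S. pombe are encoded by more than 1 gene, and the copies did not all rank alike. Copies were measured for 47 proteins (99 genes). The copy with the higher mean percentile lay above the lowest by a median of 0.59 on Sp_TMA and 0.06 on Sp_EMA. That copy was picked by these same values, so that a lead is built into these medians. The same copy was higher on both platforms for only 27 of the 47, so that the platforms often differed on the order of copies. The widest gap was in rpl16. Copy rpl1601 was at 14.23 in both cultures on Sp_TMA and at 14.30 and 14.29 on Sp_EMA, while rpl1603 was at 10.99 and 11.02 on Sp_TMA and at 12.89 and 12.96 on Sp_EMA. This was the only protein whose copies were at least 1 log2 unit apart on both platforms. The coding sequence of rpl1603 is overlapped along 100.0% of its length by an annotated gene on the other strand.

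For rpl34, rpl36 and rpl1 the higher copy was the same on both platforms and the gap between copies on each platform's own scale is given side by side. It was 2.78 and 0.55 between rpl3401 and rpl3402, 1.85 and 0.30 between rpl3601 and rpl3602, and 2.90 and 0.57 between rpl101 and rpl102 (Sp_TMA and Sp_EMA). For rpl38 the order turned. Copy rpl3802 was higher on Sp_TMA, at 11.30 and 11.25 against 9.79 and 9.72 for rpl3801, whereas on Sp_EMA rpl3801 was at 14.47 and 14.45 and rpl3802 at 14.30 and 14.27. How alike the copies are in sequence was not measured. Genes rpl101 and rpl102, both of 651 coding bases, had a GC content of 47.2% and 39.9%. The authors kept only probes unique in the genome, and how far a probe still bound the other copy's RNA was not tested.

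The rest of the translation machinery stood just as high or a little lower. All 5 elongation factor genes measured were in the top 10% of both platforms: tef101, tef3 (eEF3, an ATPase needed by fungal ribosomes), tef5 (the exchange factor of EF-1) and the eIF5A genes tif51 and tif512. The lowest of them by mean percentile, tif51, was at 14.12 and 14.25 on Sp_TMA and at 14.30 and 14.27 on Sp_EMA, while on Sp_TMA tef5 was lower, at 13.90 and 13.99. The elongation factor names tef102, tef103, eft201 and eft202 were sought too but not matched, so that the 5 are not the whole class. Of 21 initiation factor genes 14 were in the top 10% of both, from tif1 at the top to tif452, the second form of the cap-binding protein eIF4E, at ranks 1955 and 1738. Nucleolar factors that process ribosomal RNA (33 genes) had median percentiles of 80.4 and 82.3, and their highest member was fib1, fibrillarin. By contrast the 71 genes of the mitochondrial ribosome ranked in the middle, at medians of 55.7 and 57.3, and none was in the top 10% of both. Subunits of RNA polymerases I, II and III (31 genes) had medians of 66.5 and 74.9. The highest was nuc1, the largest subunit of polymerase I, which transcribes ribosomal RNA.

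**Figure D3:**
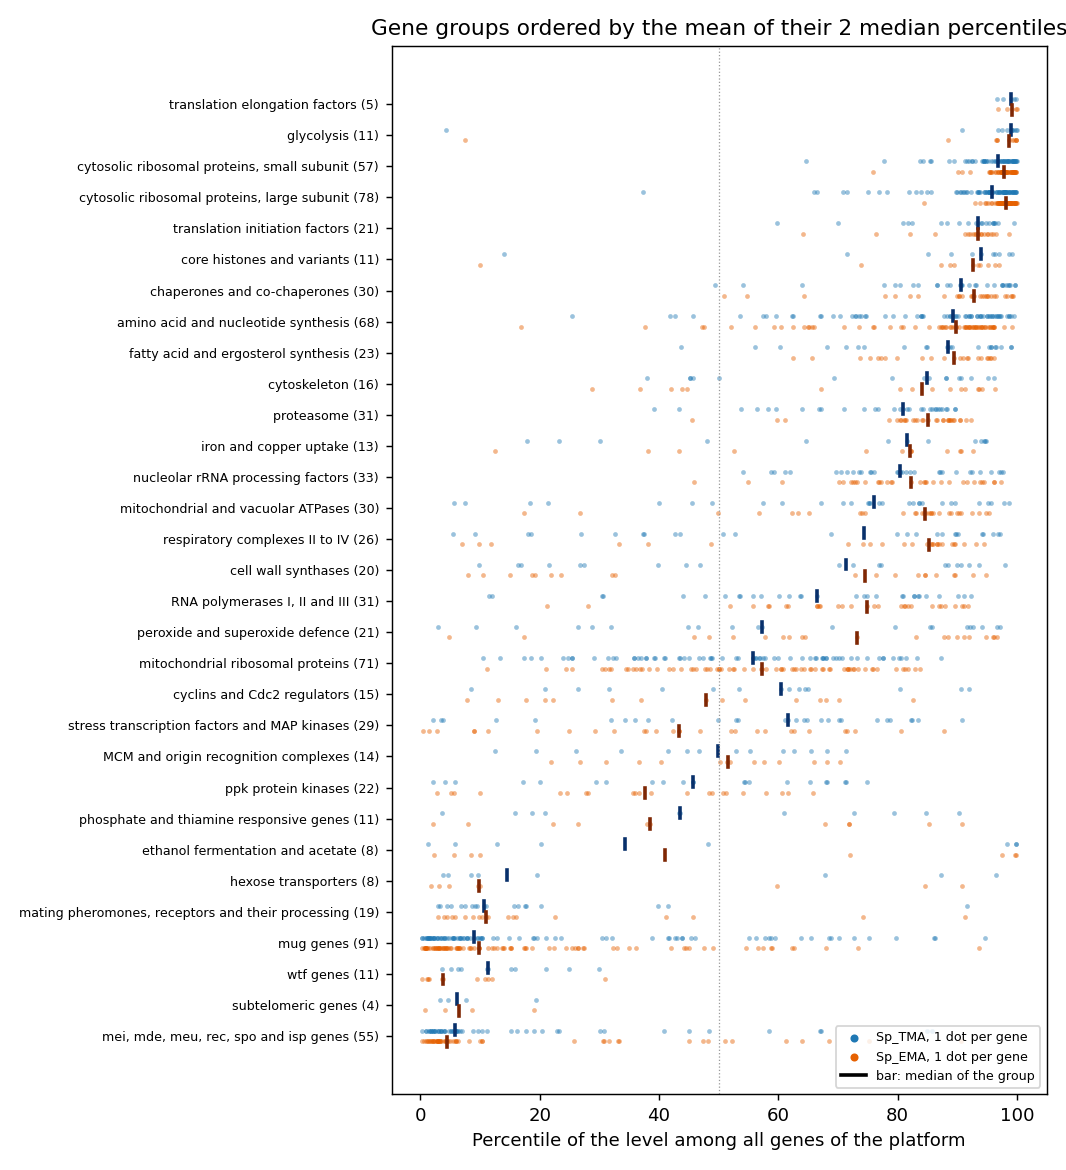
Percentile of every member of 31 gene groups (x axis, 100 is the highest level of the platform), with Sp_TMA in blue above and Sp_EMA in orange below. Dots are genes, vertical bars are group medians, and groups are ordered by the mean of both medians, with translation and glycolysis at the top and sexual cycle, subtelomeric and wtf genes at the bottom.

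Glycolysis ranked as high as the ribosome. Of its 11 measured genes 9 were in the top 10% of both platforms, among them pyk1 (pyruvate kinase, ranks 26 and 23), gpm1 (phosphoglycerate mutase, 42 and 6), pgk1 (phosphoglycerate kinase, 36 and 61), pfk1 (phosphofructokinase, 82 and 161), pgi1 and hxk2. The hexokinase gene hxk1 lay just outside, at ranks 447 and 562. The exception was eno102, the second enolase gene, which stood at 5.98 and 6.26 on Sp_TMA and at 7.50 and 7.94 on Sp_EMA, in the bottom 10% of both. This same division into a dominant copy and low copies was seen in the pyruvate decarboxylases of fermentation. Whereas pdc101 was among the highest genes, the other pyruvate decarboxylase genes pdc201, pdc202 and pdc102 ranked 4231, 4574 and 4792 on Sp_TMA and 4441, 4366 and 4743 on Sp_EMA. The alcohol dehydrogenase gene adh4 was below adh1 but not low, at ranks 2511 and 1359 (48.3rd and 72.0th percentile). Of the aldehyde dehydrogenases, atd1 was at 14.33 and 14.29 on Sp_TMA and at 14.40 and 14.37 on Sp_EMA, but atd3 ranked 3870 and 4583.

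The ght genes, listed here as hexose transporters, were divided likewise, although ght3 is annotated as a gluconate carrier. The highest of 8 was ght8, at 13.87 and 13.92 on Sp_TMA and at 13.54 and 13.48 on Sp_EMA, followed by ght2 (ranks 614 and 745) and ght5, a high-affinity glucose carrier, in the middle (ranks 1565 and 1953). The 5 others, ght3, ght4, ght1, ght7 and ght6, ranked at 3904 or lower on both platforms. The lowest, ght6, was at 5.94 and 5.87 on Sp_TMA and at 5.69 and 5.68 on Sp_EMA. Gene ght7 lies in the same range, at 6.28 and 6.21 on Sp_TMA and at 6.01 and 6.14 on Sp_EMA.

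Other biosynthetic genes were high as a group. The 68 genes of amino acid and nucleotide synthesis had median percentiles of 89.3 and 89.8, and 28 were in the top 10% of both. Their lowest member by mean percentile was lys7 (ranks 2821 and 4033), which encodes the enzyme that attaches the cofactor of the lysine pathway's reductase. The genes leu1, ade6 and his3, often mutated in laboratory strains, were at the 94.6th, 86.8th and 89.7th mean percentile. Fatty acid and ergosterol synthesis (23 genes) had medians of 88.5 and 89.4, led by ole1, the fatty acid desaturase. Chaperones (30 genes) had medians of 90.7 and 92.8 and 17 members in the top 10% of both. All 31 proteasome genes lay between the 39.3rd and the 92.3rd percentile, with medians of 80.9 and 85.2 and none in the top 10% of both.

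Mitochondrial energy genes ranked lower than glycolysis and were more spread. Subunits of respiratory complexes II to IV (26 genes) had medians of 74.4 and 85.3, and 2 were in the top 10% of both. Their highest was cyc1, cytochrome c, at 14.05 and 14.02 on Sp_TMA and at 13.91 and 13.98 on Sp_EMA. The mitochondrial and vacuolar ATPases (30 genes) had medians of 76.1 and 84.7, led by atp1, the alpha subunit of the ATP synthase (ranks 64 and 254). The lowest ATPase gene was the assembly factor atp10, at 6.73 and 6.63 on Sp_TMA and at 9.34 and 9.46 on Sp_EMA. Genes of defence against peroxide and superoxide (21) were mixed, with medians of 57.2 and 73.2. At their upper end was tpx1, the main thioredoxin peroxidase, at 14.06 and 14.04 on Sp_TMA and at 14.13 and 14.17 on Sp_EMA. At their lower end was gst1, a glutathione transferase, at 5.35 and 5.73 on Sp_TMA and at 6.48 and 6.77 on Sp_EMA.

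Core histone genes were high, and their variants were not. S. pombe has several copies of the genes for H3 and H4, which stand back to back in divergent pairs, and the 9 core histone genes measured had mean percentiles between 88.1 (hhf2) and 97.1 (hht1). The gene hht1, for H3, was at 13.91 and 14.11 on Sp_TMA and at 14.30 and 14.34 on Sp_EMA. The H2A.Z gene pht1 ranked 1383 and 1271. The gene of the centromeric H3 variant CENP-A, cnp1, was at 8.42 and 8.33 on Sp_TMA and at 8.30 and 8.50 on Sp_EMA, at ranks 4175 and 4372.

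The promoters of the 9 core histone genes share an element that those of cnp1 and pht1 did not hold in this window. Each of the 9 holds AACCCT in a pair of adjacent copies. Such a pair was found in 18 of the 4842 promoters (0.372%), of which 9 were these. Stretches of 50 bases are shown on the strand of the named gene, with both copies in capitals. Those of hht1, hta1, hht2 and hht3 are the sites they share with their divergent neighbours hhf1, htb1, hhf2 and hhf3, so that the 9 genes hold 5 sites.
hht1: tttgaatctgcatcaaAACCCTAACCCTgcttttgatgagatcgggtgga
hta1: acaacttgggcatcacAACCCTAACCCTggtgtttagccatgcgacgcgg
hta2: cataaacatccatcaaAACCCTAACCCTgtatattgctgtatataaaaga
hht2: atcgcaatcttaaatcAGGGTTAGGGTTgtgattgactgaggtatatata
hht3: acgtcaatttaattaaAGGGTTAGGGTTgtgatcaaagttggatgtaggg

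The stretches lie at I:4699636-4699685 for hht1 (plus strand), III:1412278-1412327 for hta1 (minus), I:4053349-4053398 for hta2 (minus), II:1365044-1365093 for hht2 (plus) and II:3529605-3529654 for hht3 (minus). Genes that share a site are read by different probes. On Sp_TMA hht2 was at 12.17 and 12.28 and hhf2 at 12.52 and 12.74, and on Sp_EMA hht2 was at 14.20 and 14.18 and hhf2 at 13.11 and 13.22. The order of this pair differed between the platforms, so that it was not settled which was higher.

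Genes that regulate or copy the genome ranked in the middle or below. The 15 cyclins and regulators of the kinase Cdc2 had medians of 60.4 and 47.8, and 13 of them lay higher on Sp_TMA than on Sp_EMA. The other 2 ranked higher on Sp_EMA, as did 2332 of all 4854 genes. The median coding length of the group was 1449 bases. Of the 1711 genes with at least 1200 but under 2400 bases 40.7% ranked higher on Sp_EMA. Whether the group leaned to Sp_TMA more than genes of like length was not tested. Mitotic cyclin cdc13 was the highest (ranks 386 and 843), cdc2 itself ranked 952 and 1801, and the inhibitory kinases wee1 and mik1 ranked 2886 and 3837, and 3320 and 4220. The lowest was srw1, an activator of the anaphase-promoting complex in G1, at ranks 4446 and 4473. The genes of the MCM helicase and the origin recognition complex, with the loading factors cdc18 and cdt1 (14 genes in all), had medians of 49.9 and 51.6. The MCM genes had mean percentiles from 70.8 (mcm3) to 43.2 (mcm6) and the origin recognition genes from 59.5 (orc2) to 17.2 (orc6), so that both ranges overlapped. The loaders cdc18 and cdt1 were at 46.7 and 23.1. Stress transcription factors and MAP kinases (29 genes) had medians of 61.6 and 43.3, from sty1 (ranks 443 and 942), the stress-activated MAP kinase, down to atf21 (4748 and 4781). The ppk protein kinases (22) had medians of 45.7 and 37.6. None of these groups had a member in the top 10% of both platforms.

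Genes that respond to nutrients in the medium showed both extremes. The thiamine-repressed gene nmt1, whose promoter is widely used to switch genes off by adding thiamine, was at 5.91 and 5.84 on Sp_TMA and at 5.71 and 5.83 on Sp_EMA, in the bottom 10% of both. Its companions in thiamine synthesis were higher: thi4 ranked 1328 and 1367 and thi2 ranked 2753 and 2987. The phosphate transporter gene pho84 was at 12.81 and 12.74 on Sp_TMA and at 13.55 and 13.50 on Sp_EMA. The whole group of 11 phosphate and thiamine responsive genes had medians of 43.5 and 38.5. By mean percentile its other members were pho4 (85.1), vtc4 (75.6), pho1 (64.5), thi9 (40.7), bsu1 (22.6), thi5 (19.0) and tgp1 (14.4). Of these pho4 is annotated as a thiamine-repressible phosphatase, so that genes of either kind were found high and low. The group of iron and copper uptake (13 genes) had medians of 81.6 and 82.2 and a wide range. It also held zrt1, annotated as a zinc transporter, and sib1 and sib2, annotated as a ferrichrome synthetase and an ornithine monooxygenase. The copper transporter genes ctr5 and ctr4, the siderophore transporter str1 and the iron permease fip1 had mean percentiles between 88.5 and 92.8. At the lower end by mean percentile were ctr6 (50.1), str2 (43.1), sib1 (37.9), which makes the siderophore ferrichrome, and the ferric reductase gene frp2 (21.3). The low place of ctr6 held on Sp_TMA only, at rank 3983. On Sp_EMA it ranked 866, which was the median of the group. Gene sib1 ranked 3729 on Sp_TMA and 2299 on Sp_EMA.

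The lowest levels belonged to short, mostly uncharacterized reading frames. The lowest gene on Sp_TMA and next to the lowest on Sp_EMA was SPAC9E9.17c, at 4.17 and 4.02 on Sp_TMA and at 5.13 and 5.10 on Sp_EMA. The lowest on Sp_EMA was SPAC2F3.07c, at 5.04 and 5.15. Of the 25 lowest genes by mean percentile 18 were annotated as uncharacterized, and the median coding length of the 24 with annotation was 345 bases (219 to 834), against 945 bases (474 to 2295) for the 25 highest. Named genes among them were rec27 (meiotic recombination), moa1 (meikin, which acts at meiotic centromeres), mug96, mug112, gdt1 and fub2. The order at this end was not resolved: neighbouring genes overlapped in all 24 pairs on Sp_TMA and in 23 of 24 on Sp_EMA. Over the whole bottom list of 330 genes, 78 (23.6%) were annotated as uncharacterized against 5.77% of all genes. At such levels no array value separates a rare transcript from the background of its probes.

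Genes of the sexual cycle filled much of the bottom list. The lists for mating, meiosis and mug genes (a screen name, meiotically upregulated gene) held 165 genes, which made up 3.40% of all genes and 82 (24.8%) of the 330 at the bottom of both platforms. The 55 mei, mde, meu, rec, spo and isp genes had medians at the 5.74th and 4.44th percentile, and 35 were in the bottom 10% of both, against the 6.8% of all genes. The list is not pure. Its highest member was spo20, a phospholipid transfer protein of the Golgi that growing cells need, at 12.30 and 12.28 on Sp_TMA and at 13.46 and 13.52 on Sp_EMA. Of the 91 mug genes 40 were in the bottom 10% of both and the median percentiles were 8.97 and 9.78. The highest by mean percentile, mug64, encodes a BAR domain protein and ranked 675 and 305.

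Defining meiotic genes were all low. The forkhead factor mei4, which turns on middle meiotic genes, ranked 4114 and 4643. The meiotic cohesin rec8, at 6.93 and 6.89 on Sp_TMA and at 5.65 and 5.67 on Sp_EMA, the nuclease-like rec12, which makes meiotic breaks, the kinase partner spo6 and the inducer mei3 all ranked 4555 or lower on both platforms. The coding sequence of spo6 is overlapped fully by a gene on the other strand.

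Most mating genes were low. The 19 genes of pheromones, receptors and their processing had medians of 10.7 and 11.1, and 7 were in the bottom 10% of both. An h- strain is of the M type, which secretes M-factor and carries the receptor for P-factor. Its genes mfm1, mfm3 and mam2 had mean percentiles of 2.99, 4.50 and 5.44, and those of the P type map1, map2, map3 and map4 had 4.51, 8.01, 13.0 and 12.5. The mean percentiles of mam1, the M-factor exporter, and mfm2 were 16.8 and 28.4. Gene mfm2 stood at 8.19 and 7.85 on Sp_TMA, but at 10.83 and 11.03 on Sp_EMA. Its rank was 4324 on Sp_TMA and 2632 on Sp_EMA. The highest of the 19, and the only one in the top 10% of both platforms, was sxa1, an aspartic protease, at 12.92 and 12.99 on Sp_TMA and at 13.56 and 13.58 on Sp_EMA.

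Genes near chromosome ends were low too. The 122 genes within 100 kb of a chromosome end in the assembly had median percentiles of 19.8 and 21.3, and 41 (33.6%) were in the bottom 10% of both, against 5.95% of genes farther away. The 11 wtf genes, a family that includes meiotic drivers, which kill spores that do not inherit them, lie on chromosome III and had medians of 11.3 on Sp_TMA and 3.74 on Sp_EMA. Of these, wtf5, wtf10, wtf16, wtf20 and wtf25 are annotated as antidote-like suppressors of drive. The highest by mean percentile was wtf14, at 8.59 and 8.50 on Sp_TMA and at 10.14 and 10.35 on Sp_EMA, while on Sp_TMA wtf25 was higher, at 9.49 and 9.34. Gene wtf20 was among the 10 lowest genes of Sp_EMA (rank 4845) while it ranked 4304 on Sp_TMA. These genes are near copies of each other, and the spread of the authors' unique probes over them was not examined.

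Some genes ranked far apart on the platforms. The widest gaps were in genes higher on Sp_EMA. SPBC29A3.21, an uncharacterized gene of 303 coding bases, was at 6.74 and 6.78 on Sp_TMA (rank 4577) and at 13.12 and 13.16 on Sp_EMA (rank 638). The mitochondrial import subunit tom7 was at 7.84 in both cultures on Sp_TMA (rank 4389) and at 13.23 in both on Sp_EMA (rank 586). The signal recognition particle subunit srp14, the Arp2/3 subunit arc5, the copper transporter ctr6, the splicing protein smd2, the oxidase subunit cox8, the mitochondrial ribosomal protein mrp2, rrp45 of the exosome and the reductase mxr2 completed the 10 widest. In each of these 10 both cultures gave the same picture. The coding sequences of tom7, cox8 and mrp2 are overlapped over 84.9%, 99.5% and 100.0% of their length by a gene on the other strand, and those of the other 7 by none.

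In the opposite direction the widest gap was in ted1, a phosphatase, at 11.41 and 11.26 on Sp_TMA (rank 1335) and at 6.99 and 6.91 on Sp_EMA (rank 4585). SPAC977.17 of the aquaporin superfamily, the phosphotransfer protein mpr1 of the peroxide-sensing pathway, the CCAAT-binding subunit php2, dss1, wsc1, rpb9, SPBC16G5.06, ryh1 and edc1 followed. Sp_EMA target was double-stranded and carries no strand, and Sp_TMA target kept it. The median gap (Sp_EMA minus Sp_TMA) was 0.00 percentile points for the 423 genes overlapped over more than 50% of their coding length. It was -0.54 for the 4146 with no overlap. Among the overlapped genes it was -0.91 for the 134 whose partner was in the top 50% on Sp_TMA. For the 274 with a partner in the bottom 50% it was 0.12. Why single genes differ was not tested.

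Short genes ranked higher on Sp_EMA. Of all 4854 genes 2332 ranked higher on Sp_EMA than on Sp_TMA. The 130 genes with under 300 coding bases had a median percentile of 40.3 on Sp_TMA and 55.9 on Sp_EMA, and 85 of them (65.4%) ranked higher on Sp_EMA. Of the 740 genes with 300 to 599 bases 59.2% did so. In the 1711 genes with 1200 to 2399 bases the medians were 53.4 and 48.4, and 40.7% ranked higher on Sp_EMA. Across 4842 genes the gap had a Spearman's rho of -0.20 with coding length, which is a description over genes. With the GC content of the coding sequence its rho was -0.23, so that length was not the only feature that went with the gap. Without ribosomal protein genes the values were -0.18 for length and -0.25 for GC content. Level itself hardly followed length. Its rho with coding length was 0.02 for the mean percentile, 0.08 on Sp_TMA and -0.04 on Sp_EMA. Without ribosomal protein genes it was 0.08, 0.14 and 0.02. Among ribosomal protein genes all 17 with under 300 coding bases ranked higher on Sp_EMA, with medians of 89.98 on Sp_TMA and 98.0 on Sp_EMA, and so did 77 of the 118 longer ones, with medians of 97.1 and 98.1. The 17 ran from the 37.3rd to the 98.0th percentile on Sp_TMA, and 8 of them were in its top 10%. The coding lengths of rps3002, rpl3801 and rpl3802 are 186, 225 and 225 bases, and these genes ranked 1715, 3043 and 1381 on Sp_TMA and 115, 98 and 152 on Sp_EMA. A short gene offers fewer places for probes, and the number of probes per gene was not examined here.

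**Figure D4:**
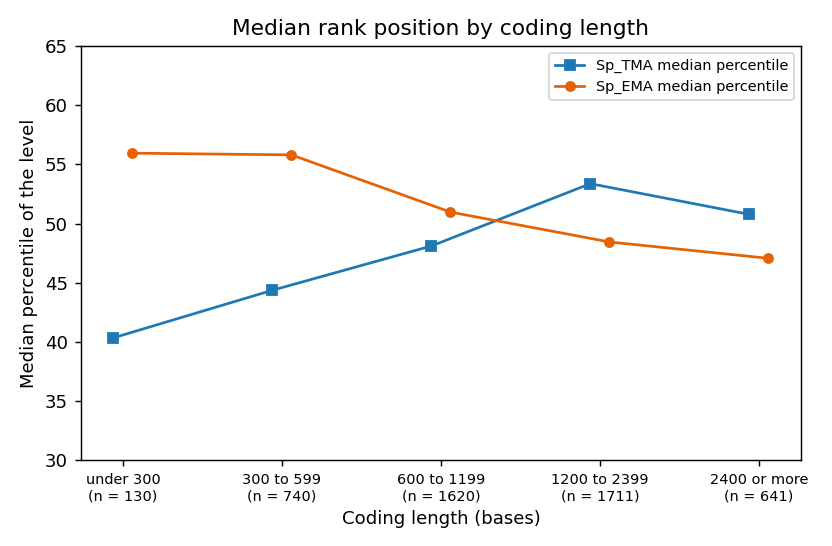
Median percentile of the level (y axis, cut to 30 to 65) in 5 classes of coding length (x axis, bases, with the number of genes) on Sp_TMA (squares) and Sp_EMA (circles). The medians lie 40.3 against 55.9 in the shortest class and cross between 600 and 2399 bases.

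Base composition went with level more closely than length did. Across the 4842 annotated genes the GC content of the coding sequence had a Spearman's rho of 0.54 with the level on Sp_TMA and 0.41 on Sp_EMA, and 0.51 and 0.37 without ribosomal protein genes. The GC content of probes also affects how brightly they bind, and its part in this relation was not tested. Codon choice differed between the ends of the ranking with and without the ribosomal protein genes. CGT made up 64.3% of all arginine codons in the 370 genes at the top of both platforms, 62.4% in these without the ribosomal protein genes, 31.0% in all genes and 21.3% in those at the bottom of both. For lysine, AAG made up 63.9% at the top and 33.6% at the bottom. The isoleucine codon ATA made up 4.78% at the top and 26.0% at the bottom. Genes with 3 or more coding exons were less often at either end. Of these 1271 genes 2.99% were in the top 10% of both platforms, against 9.36% of the 2574 genes with a single coding exon. In the bottom 10% of both were 4.72% against 7.93%. For genes with 2 coding exons the shares were 9.13% at the top and 5.82% at the bottom. No test was run on these shares.

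The cultures differed in few genes, and only part of these differences was seen on both platforms. Culture 2 minus culture 1 had a Pearson's r of 0.45 and a Spearman's rho of 0.42 between Sp_TMA and Sp_EMA over all genes, which measured the same RNA. A gap of at least 1 log2 unit was seen in 4 genes on each platform. Only 2 genes (0.0412% of all genes) were at least 1 log2 unit apart in the same direction on both, SPAC212.08c and tlh2, both subtelomeric and both higher in culture 2. With 0.5 in place of 1, 51 genes differed on Sp_TMA and 32 on Sp_EMA, and 14 did so in the same direction on both, 10 of them higher in culture 2 and 4 in culture 1.

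Smaller shifts ran through whole groups. Of the 13 genes in the group of iron and copper uptake 12, the zinc transporter zrt1 among them, were higher in culture 1 on both platforms. Of all 4854 genes 1180 were so. The median of the group (culture 2 minus culture 1) was -0.33 on each platform, against 0.02 and 0.03 over all genes. The ferric reductase gene frp1 was at 12.24 in culture 1 and 11.56 in culture 2 on Sp_TMA, and at 13.09 and 12.43 on Sp_EMA. The siderophore transporter str3 was at 12.58 and 11.85 on Sp_TMA and at 12.61 and 11.93 on Sp_EMA. The member that did not follow was str2, at 10.16 and 10.26 on Sp_TMA and at 10.66 and 10.54 on Sp_EMA. In the other direction, 17 of the 21 genes of peroxide and superoxide defence were higher in culture 2 on both platforms (medians of 0.17 and 0.10), as were 26 of 31 proteasome genes (0.11 and 0.04) and 51 of 71 mitochondrial ribosomal protein genes (0.11 and 0.09), against 2031 of all genes. With a single culture on each side these are differences between 2 cultures of the same treatment, and no test was possible.

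**Figure D5:**
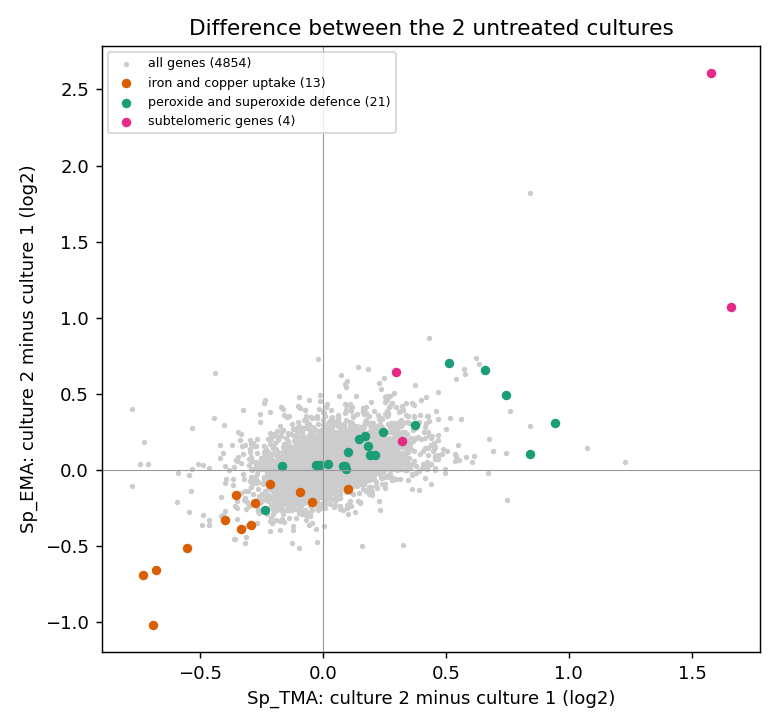
Culture 2 minus culture 1 (log2) on Sp_TMA (x axis) and Sp_EMA (y axis) for all 4854 genes (grey) and 3 groups. Of the iron and copper uptake group (orange, with the zinc transporter zrt1) 12 of 13 genes lie below 0 on both axes. The peroxide and superoxide defence genes (green) lie mostly above 0 on both.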

How the data were processed

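Total RNA of 2 untreated S. pombe cultures was hybridized by the authors to Affymetrix Yeast Genome expression arrays with double-stranded target, and to S. pombe tiling arrays with target that keeps the strand. Per the study's methods, the authors grouped probes with a single genome match inside annotated exons into probe sets of at least 4 probes per gene and ran RMA (background correction, quantile normalization, median polish). The deposited log2 values of the 4 control arrays were used as given. The RMA version is not given in the sources used here. The tables were normalized separately, so that genes were set across platforms by rank, and by level only in a correlation and a plot over all genes. For arrays, the number of arrays (2 per platform) limits the precision, and with no counts there is no depth.

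Entries were matched by systematic name to the RefSeq annotation of assembly ASM294v3 for names, coordinates and promoters. Of 4854 entries 4842 matched, and the other 12 matched no gene or shared one. The authors' probes were placed on an earlier annotation, and the files carry no coordinates. Percentiles were computed with pandas 2.3.3 and correlations with scipy 1.17.1, checked on simulated data. No test was run. The 31 gene groups (882 genes) came from symbols or annotated products. Of the names sought 34 were not matched, so that genes such as tdh1 or act1, and the marker ura4, were not analysed here, and 7 genes were left out of a group because their product belonged elsewhere, after values had been seen. Members and lists were chosen with earlier results of these data known. Genes named are the 25 highest and lowest by mean percentile, the 10 highest and lowest of each platform, the 10 widest gaps between platforms each way, genes 1 log2 unit apart between cultures on both platforms, the ends of each group (all members of groups of up to 15), the ribosomal protein copies with the 5 widest gaps, and markers of mating type, auxotrophy and meiosis.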

Additional observations from a re-analysis of the deposited data

How the results depend on the processing

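No paired analysis was possible because the results come from no test. Leaving out each culture in turn left Spearman's rho between the platforms at 0.83 (0.8275 to 0.8283), and gave 365 to 369 genes at the top and 331 to 335 at the bottom of both platforms. Ribosomal protein genes at the top of both then numbered 111 to 112. The rank correlation was 0.71 without the dimmest 25% of genes and 0.8307 for genes with no overlap on the other strand, and Pearson's r of the levels was 0.86. With 5% in place of 10%, 160 genes were at the top and 193 at the bottom of both platforms, and with 20% they were 751 and 665. The relation of level with coding length was weak: 0.0186 in all, 0.00504 to 0.0320 with a culture left out, 0.0787 on Sp_TMA alone and 0.0808 without ribosomal protein genes. On Sp_EMA alone it was -0.0440, where its sign turned. It was largest on Sp_TMA without ribosomal protein genes, at 0.141, against 0.0168 on Sp_EMA without them. The share of top promoters with a HomolD box was 24.9 to 25.5% with a culture left out, 42.5% for the top 5%, 14.5% for the top 20% and 7.34% without ribosomal protein genes. Differences between the cultures of at least 1 were seen in 4 genes on Sp_TMA and in 4 on Sp_EMA, and differences of at least 0.5 on both platforms in 14. Leaving out a culture moved a group median by at most 5.75 percentile points (124 values) and a gene at either end by at most 0.76 (100 values). Ranking all genes of each table gave the same values, because both tables list the same genes, and centring each array on its median left rho as it was. With 2 arrays per platform the spread between cultures is known only roughly, and levels near the floor cannot be told from background.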
